A study of Gossypium hirsutum with 24 samples.

Results

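Anthers from cotton flower buds of 3 sizes were compared with vegetative tissues. The comparison rested on 15 of the 24 arrays of the series, chosen by their titles: 9 of anthers (3 each from buds of 5, 7 and 8 mm), 3 of young leaf and 3 of seedling. All were of upland cotton (Gossypium hirsutum), with 1 Affymetrix Cotton Genome array per RNA sample. Anthers were dissected with a needle and frozen at once, leaves came from plants 1 month old, and seedlings were taken 5 days after germination. No treatment, genotype or cultivar distinguishes the groups in the labels, and the remaining 9 arrays hold buds of the same 3 sizes without their anthers. The series text calls the replicates biological but does not name the plants, so p-values measure the spread between samples within groups. That spread was pooled over all 24 arrays, so scatter among the buds enters each SE and p-value.

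An anther is the pollen-forming organ of the flower. Its inner cell layer, the tapetum, nourishes the developing pollen and supplies material for the pollen wall, then breaks down. Leaves and seedlings are built largely of green, photosynthetic cells, although a seedling also holds a stem and a root. The study set out to find genes expressed in anthers around meiosis. Its authors matched bud size to tapetum stage, but the labels do not say which size stands for which of the stages, namely before meiosis, during it and after it.

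Values are on the log2 scale, so a difference of 1 is a doubling of signal. Of 23977 probe sets that are not controls, 17666 exceeded background on at least 3 arrays of the series and were tested. Background was 2.23, the 95th percentile of control probe sets whose targets were not added. Between 65.7% and 67.1% of probe sets lay above it on each of the 15 arrays. In each comparison the 3 anther sizes had equal weight, as had leaf and seedling. A probe set was called where limma's adjusted p was under 0.05 and the log2 difference at least 1 in size. The number of arrays limits the precision.

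Only 634 tested probe sets carry a single gene symbol, covering 495 genes. All symbols are locus numbers without a product name, so no function can be given for them. For the same reason the labelled tissues could not be checked against marker genes, and no pathway is described.

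Across probe sets, an anther array and a vegetative array correlated with a median r of 0.801. Leaf and seedling arrays correlated with a median of 0.928, and arrays within a group with medians between 0.976 and 0.994. These values describe the arrays, since probe sets are not independent replicates. Some arrays stood apart from their group. In 5 mm anther replicate 1, 174 probe sets lay at least 2 log2 units above both other replicates and 42 as far below. In leaf replicate 4 the counts were 59 above and 108 below. In the other 13 arrays no more than 77 probe sets lay so far above both others. Results that turn on the first pair are given with and without them.

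Anthers and vegetative tissues differed at 6260 probe sets, 35.4% of those tested. In anthers 3208 probe sets rose (18.2% of those tested) and 3052 fell (17.3%). The falls were larger. The median called fall was -2.16 on the log2 scale, against a median called rise of 1.57, and over everything tested the median difference was 0.12. A difference of at least 3, was reached by 971 of the falls (31.8%) and by 391 of the rises (12.2%). At a difference of at least 8 there were 67 falls and 7 rises.

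**Figure D1:**
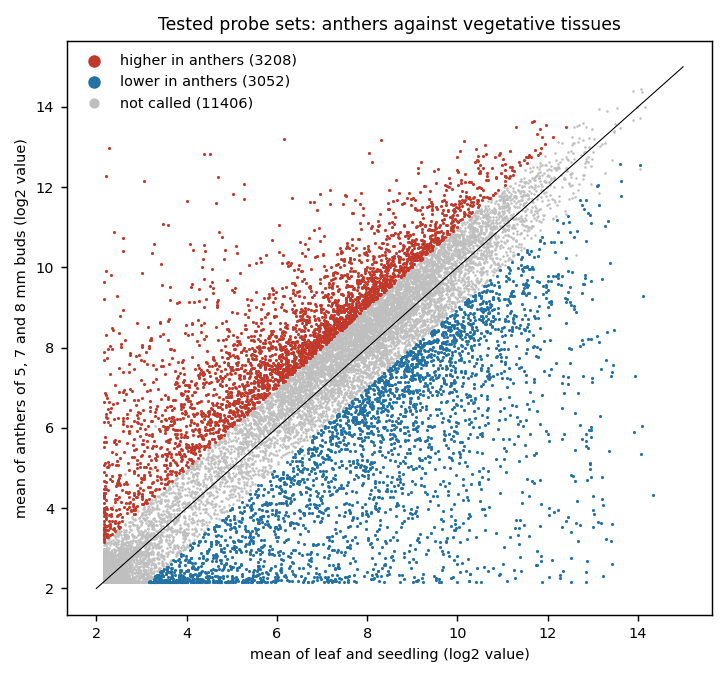
Each point is a tested probe set, with the mean log2 value of the 9 anther arrays on the vertical axis and that of the 6 leaf and seedling arrays on the horizontal axis. The 3208 probe sets called higher in anthers (red) crowd near the line of equal values, and the 3052 called lower (blue) spread further from it, many down to the lowest value of the table.

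Which direction had more calls depended on the threshold. With the adjusted p alone, 7226 probe sets were higher in anthers (40.9% of those tested) and 4940 lower (28%). With an adjusted p under 0.01 and a difference of at least 2, 1035 were higher and 1676 lower. With each array centred on its median, the numbers were 3059 and 3136. Without 5 mm anther replicate 1 they were 3255 and 3071, and without leaf replicate 4 they were 3229 and 3065.

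The anther sizes gave similar numbers when each was set alone against leaf and seedling. Anthers of 5 mm differed at 37.8% of tested probe sets (3559 higher, 3117 lower), those of 7 mm at 37% (3405 and 3136) and those of 8 mm at 34.1% (3002 and 3022). Set against leaf alone, anthers of all sizes differed at 36.9%, and against seedling alone at 35.9%. Buds without anthers differed from the same vegetative arrays at 28.9%.

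As deposited, most calls separated the arrays completely. Every anther array lay above every vegetative array in 2354 of the 3208 rises (73.4%), and below in 2295 of the 3052 falls (75.2%). Over all tested probe sets, called or not, such separation was found in 20.3% (3588) and 14.9% (2640). It depended on the scaling: with spike-in scaling only 1353 of all tested probe sets had every anther array above and 1749 had every one below. Calls under that scaling were 3205 rises and 2714 falls, and separation among those calls was not counted. Of the rises, 50 (1.56%) were at or below background on all 6 vegetative arrays. Of the falls, 176 (5.77%) were at or below background on all 9 anther arrays. In buds without anthers, 26 of the 50 and 81 of the 176 were at or below background as well. The matching shares of all tested probe sets are not given, so these counts are not read as a result.

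The balance of rises and falls differed by signal level, taken as the mean over the 15 arrays. This mean holds 9 anther and 6 vegetative arrays, so it places rises at higher levels than falls of the same size. The part of this weighting in the balance was not tested. Among the 1797 tested probe sets with a mean level above 10, 20.7% rose and 9.02% fell in anthers. Among the 2274 between 4 and 6, 26.1% rose and 31.8% fell, and among the 4551 at or below 4, 3.91% rose and 11.7% fell. The array holds probe sets named Ghi, after Gossypium hirsutum, and Gra, after its diploid relative Gossypium raimondii. Of 14307 tested Ghi probe sets, 20.1% rose and 17.3% fell in anthers. Of 3254 tested Gra probe sets, 9.40% rose and 16.8% fell. The median value over the 15 arrays was 3.15 for Gra and 7.42 for Ghi probe sets, and the part of this gap in the counts was not tested.

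Among genes with a locus number, 103 rose in anthers and 144 fell on at least 1 probe set. Of the 634 tested probe sets with a single symbol, 18.9% were called higher and 25.4% lower, beside 18.2% and 17.3% of all tested probe sets. A difference of at least 3 was reached by 18 of the genes that rose and 57 of those that fell. The genes described next are those whose arrays separated completely and whose difference was largest.

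The 12 leading genes that rose differed by 4.41 to 10.69 log2 units, with adjusted p between 3.95e-24 and 8.61e-08 for these and the 2 leading probe sets without a symbol. Those differences fall into distinct patterns when the rest of the bud is set beside them, so the buds without anthers are given for each gene. The comparison with buds uses the same anther arrays. Over all tested probe sets it called 23.5%, with 9.83% higher and 13.7% lower in anthers. Of the 14 leading genes and probe sets, 6 were also called higher in anthers than in buds, 1 lower, and 7 were not called.

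Signal that anthers shared with the rest of the bud led the ranking. LOC107933402 had 12.75, 12.90 and 13.32 as lowest, median and highest value in anthers, against 2.16, 2.29 and 2.53 in vegetative tissues. Every anther array was thus near the top of the scale and every leaf and seedling array near background. The difference was 10.69 (SE 0.09, adjusted p = 3.95e-24). Buds without anthers ranged from 12.83 to 13.58, and their difference from anthers, -0.21 as anthers minus buds, did not reach the size needed for a call.

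LOC107896372 ranged from 12.24 to 13.23 in anthers, with a median of 12.97. Its vegetative values split by tissue, at 2.16, 2.20 and 2.16 in leaf and 6.60, 6.43 and 6.74 in seedling. Leaf was therefore near background and seedling was not. Anthers exceeded the mean of both tissues by 8.45 (SE 0.12, adjusted p = 6.94e-21), leaf by 10.66 and seedling by 6.24. Buds without anthers overlapped anthers, at 12.87 to 13.56.

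LOC107909849 had a median of 9.87 in anthers, from 9.17 to 10.17, against a median of 2.40 in vegetative tissues, from 2.16 to 2.44. It rose by 7.47 (SE 0.14, adjusted p = 7.46e-19), and buds without anthers spanned 8.92 to 10.23. All 3 leaf arrays held exactly the same value, 2.44, so the leaf level has no measured spread. LOC107907037 was high in anthers and buds, with 11.75, 12.74 and 14.02 in anthers against 7.2, 8.26 and 8.48 in vegetative tissues, a rise of 4.82. Its bud values ran from 11.08 to 13.95. The leading probe set without a symbol, listed as a Gra one, belonged to the same pattern. It stood at 11.92 to 12.75 in anthers, 2.16 to 2.50 in vegetative tissues and 12.11 to 12.84 in buds, and rose by 10.06.

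Another pattern was signal higher in anthers than in every other tissue. The clearest case was a Ghi probe set without a symbol. Its lowest, median and highest values were 11.87, 12.19 and 12.46 in anthers, against 2.16, 3.03 and 3.97 in vegetative tissues. It rose by 9.09 (SE 0.19, adjusted p = 3.03e-18). Buds without anthers, at 4.14 to 7.35, lay between the others without overlap, and anthers exceeded them by 6.59.

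LOC107961466 was also graded across the 3 kinds of tissue. Anthers had 8.38, 8.61 and 9.44, against 2.16, 2.55 and 2.97 in vegetative tissues, a rise of 6.26 (SE 0.18, adjusted p = 2.20e-16). Buds without anthers stood at 4.75 to 6.30, and anthers exceeded them by 3.24. LOC107959710 spanned 10.30 to 11.41 in anthers against 2.16 to 2.52 in vegetative tissues. It rose by 8.48 and exceeded buds, at 8.13 to 9.69, by 1.75. LOC107925198 was well above background everywhere. It had 12.16 to 12.99 in anthers, 9.02, 9.01 and 8.78 in leaf and 7.31, 7.21 and 7.35 in seedling, so that leaf stood above seedling. It rose by 4.51 against vegetative tissues and exceeded buds by 2.35.

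For LOC107933034 and LOC107956851, no array of buds without anthers exceeded the highest vegetative array. For LOC107933034, anthers had 10.39, 6.76 and 6.62 at 5 mm, followed by 9.95, 9.90 and 9.87 at 7 mm. The 8 mm anthers had 9.08, 8.90 and 10.83. Leaf had 2.75, 2.27 and 2.71, and seedling had 5.56, 5.98 and 5.70. The lowest anther array thus exceeded the highest seedling array by little. The rise over both tissues was 4.98 (SE 0.44, adjusted p = 6.17e-09), and buds spanned 2.93 to 5.40.

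LOC107956851 had 10.62, 7.03 and 6.48 in 5 mm anthers, 10.77, 10.76 and 9.44 in 7 mm anthers, and 7.68, 6.83 and 5.77 in 8 mm anthers. Leaf had 4.16, 4.19 and 4.17, and seedling had 3.76 on all 3 arrays. The rise was 4.41 (SE 0.46, adjusted p = 6.42e-08). In both genes, 5 mm anther replicate 1 stood more than 3 units above the other 5 mm replicates. Without it the rises were 4.57 for LOC107933034 and 3.98 for LOC107956851.

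LOC107895262 differed from these in being higher in buds than in anthers. Its values were 6.61, 7.78 and 8.64 in anthers and 2.45, 2.83 and 3.28 in vegetative tissues, a rise of 4.90 (SE 0.19). Buds ranged from 8.93 to 10.82, and anthers lay 1.83 below them (anthers minus buds -1.83, adjusted p = 3.32e-08).

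**Figure D2:**
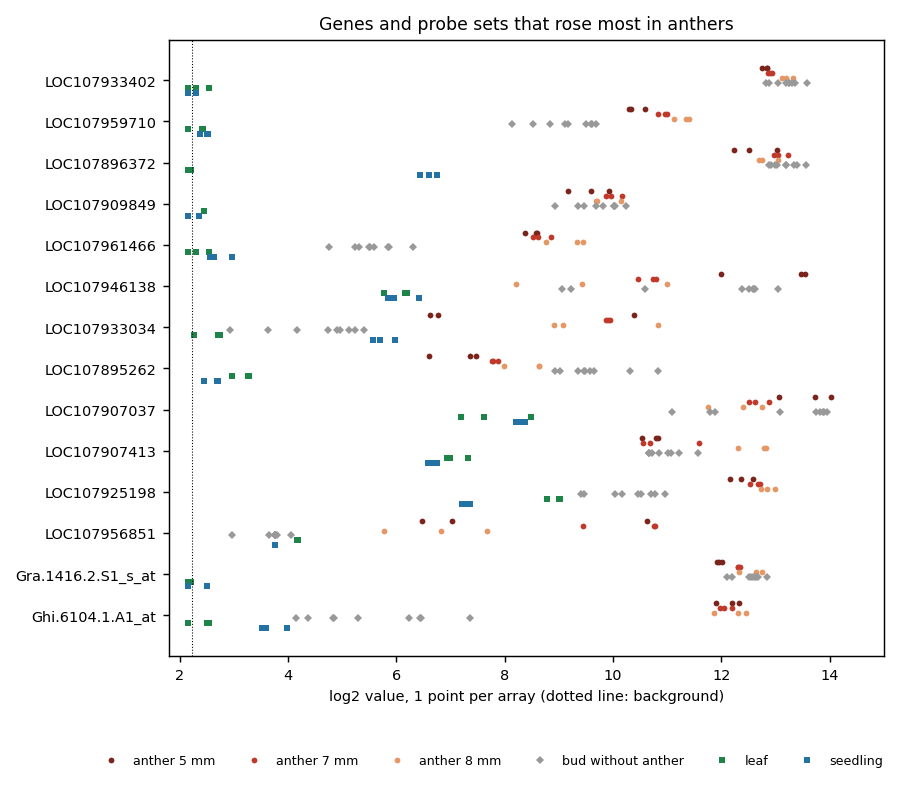
Each row is a gene or probe set that rose most in anthers, and each point is an array, with the log2 value on the horizontal axis. Rows were chosen for complete separation, so anther points lie right of all leaf and seedling points in each. Bud points reach the anther range for LOC107933402, and none exceeds the highest leaf or seedling point for LOC107956851.

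The genes that fell did so by more. The 12 leading genes measured on both sides differed by -7.75 to -10.44, and the mean of leaf and seedling exceeded the bud mean in each. Of the 17 leading genes and probe sets, 14 were called lower in anthers than in buds, none higher, and 3 were not called. The shares over all tested probe sets were 13.7% lower and 9.83% higher, and the comparison uses the same anther arrays. The bud arrays mostly lay between anthers and vegetative tissues.

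LOC107942112 had 2.37, 2.46 and 2.47 as lowest, median and highest value in anthers, against 12.37, 12.77 and 13.40 in vegetative tissues. Anthers were close to background on all 9 arrays and vegetative tissues bright on all 6. It fell by 10.44 (SE 0.30, adjusted p = 3.94e-16), and buds stood at 4.10 to 6.99. LOC107947008 ranged from 2.16 to 2.39 in anthers and from 12.11 to 12.44 in vegetative tissues, and fell by 10.01. Its buds were widely scattered, from 2.72 to 9.60, and this scatter enters its SE of 0.73.

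LOC107943729, LOC107915836 and LOC107958776 differed by -9.48, -9.19 and -9.07. LOC107943729 had 3.07 to 4.20 in anthers against 12.68 to 13.51 in vegetative tissues. For LOC107915836, anthers reached 4.70 on 5 mm replicate 1, with a median of 2.23, against 11.11 to 12.33 in vegetative tissues. Without that array the difference was -9.45, and a dim probe set of the same gene, not called, differed by -0.36. LOC107958776 was even within each tissue, with 3.70 to 4.12 in anthers and 12.77 to 13.15 in vegetative tissues.

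In other genes, buds without anthers were far brighter than anthers. LOC107958067 had 3.59, 4.22 and 5.22 in anthers, against 12.37, 13.07 and 13.44 in vegetative tissues, a fall of 8.71 (SE 0.17, adjusted p = 1.50e-18). Its buds stood at 10.91 to 11.62, and anthers lay 7.05 below them. LOC107914060 had 2.29, 2.71 and 4.19 in anthers, 11.31, 11.18 and 9.75 in leaf and 12.77, 12.75 and 12.85 in seedling. It fell by 8.83, and the difference was -9.08 without leaf replicate 4, the lowest leaf array. Buds spanned 9.71 to 10.64 and overlapped leaf only through replicate 4, at 9.75. The other leaf arrays lay above every bud array. Of the probe sets without a symbol, the one with the largest fall differed by -10.92, with 2.16 to 2.73 in anthers, 13.17 to 13.39 in vegetative tissues and 9.21 to 11.07 in buds.

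In contrast, LOC107954549 and the next probe set without a symbol were low in all flower tissue. LOC107954549 had 2.73, 3.09 and 3.39 in anthers against 10.78, 11.02 and 11.30 in vegetative tissues, with buds at 3.81 to 5.31, and fell by 8.01. The probe set without a symbol had 2.42 to 2.83 in anthers, 13.06 to 13.84 in vegetative tissues and 2.83 to 5.11 in buds, and fell by 10.81. LOC107933118 had a median of 4.49 in anthers, 12.52 in vegetative tissues and 4.25 in buds. It fell by 7.75, and its difference between anthers and buds was -0.01.

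LOC107938326, LOC107900463 and LOC107940910 differed by -8.28, -8.04 and -7.97. Their anther arrays were all above background, as were those of LOC107958067 and LOC107933118. LOC107900463 had 5.03 to 7.45 in anthers against 13.93 to 14.25 in vegetative tissues. LOC107938326 had 2.66 to 5.13 in anthers against 11.65 to 12.06 in vegetative tissues. LOC107940910 had 3.41 to 6.61 in anthers against 12.42 to 13.24.

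A further 3 genes were at or below background on all 9 anther arrays, so their falls are lower bounds, given against the mean of leaf and seedling unless stated. LOC107914313 was at 2.16 on every anther array and at 9.47 to 9.94 in vegetative tissues, at least 168-fold lower in anthers, or at least 75.5-fold with spike-in scaling, which sets a higher floor. LOC107958101 was at 2.17 or 2.18 in anthers and at 8.27 to 10.03 in vegetative tissues, at least 118-fold lower. Its bound was 69-fold against seedling alone and 52.7-fold with spike-in scaling. LOC107927057 was at 2.16 in anthers and 7.38 to 10.22 in vegetative tissues, at least 89.6-fold lower. Leaf and seedling differed here, and the bounds were 213-fold against leaf alone, 37.7-fold against seedling alone and 40.2-fold with spike-in scaling. LOC107927057 was at 2.16 on the bud arrays too, whereas LOC107914313 had 5.52 to 7.73 there.

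**Figure D3:**
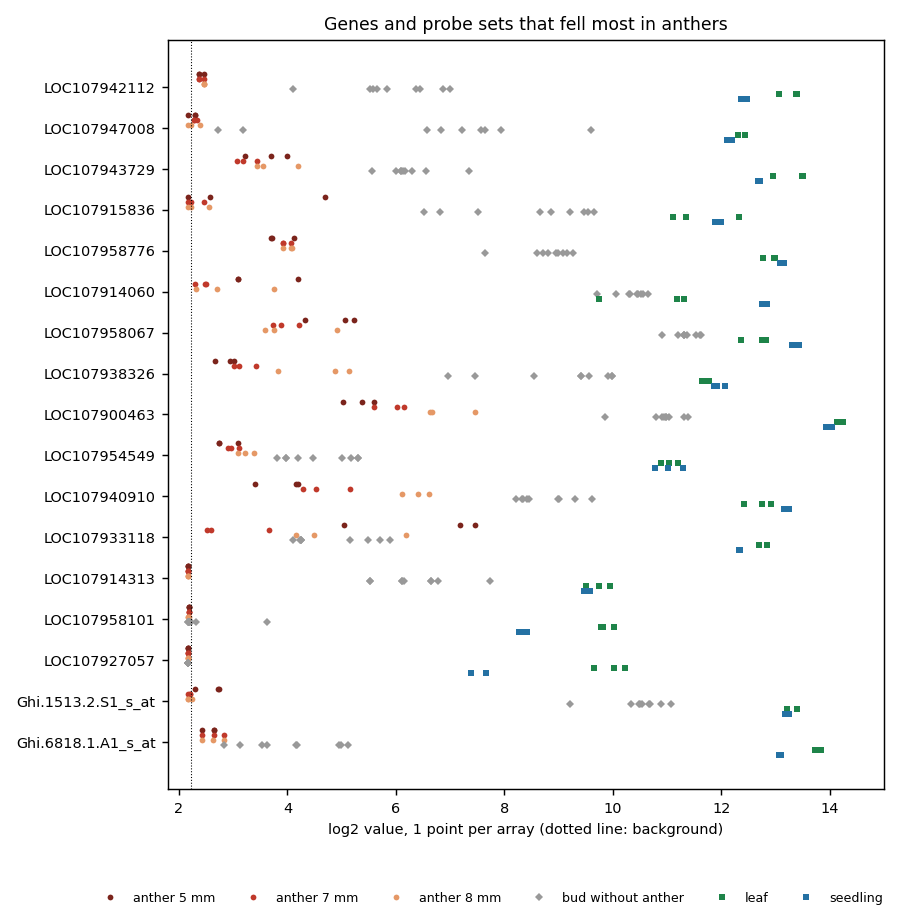
Each row is a gene or probe set that fell most in anthers, and each point is an array, with the log2 value on the horizontal axis. Rows were chosen for complete separation, so anther points lie left of all leaf and seedling points in each. Bud points fill the space between them in most rows, close to anthers for LOC107954549 and close to leaf for LOC107914060.

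Beyond the leading genes, 91 genes rose by 1.00 to 4.23, with a median of 1.57, and 129 fell, with differences of -1.01 to -7.59 and a median of -2.02. Of the 91, 19 were also higher in anthers than in buds and 10 lower. Of the 129, 2 were higher in anthers than in buds and 76 lower. Over all called probe sets, the mean in buds was nearer to the anther mean than to the vegetative mean in 57.9% of the rises and 59.7% of the falls. The bud mean exceeded the anther mean in 698 of the 3208 rises, and lay below it in 601 of the 3052 falls. These shares describe positions between means of the same arrays and were not tested.

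The difference from vegetative tissues was then followed across bud size. An anther size step was called for 1116 of the rises (34.8%) and 797 of the falls (26.1%), beside 18.6% of all tested probe sets. Without 5 mm anther replicate 1 these counts were 1252 and 936. All tested probe sets include 4551 with a mean level at or below 4, and the part of signal level in these shares was not tested. The rises moved in both directions. Between 5 and 7 mm, 410 of them increased and 204 decreased, beside 5.86% and 4.55% of all tested probe sets. Between 7 and 8 mm, 126 increased and 271 decreased, beside 2.72% and 3.02%. Between 5 and 8 mm, 376 increased and 424 decreased, beside 6.71% and 6.35%. In all, these steps were called for 10.4%, 5.74% and 13.1% of tested probe sets. Among the falls, 200 increased and 234 decreased between 5 and 7 mm, and 181 increased and 61 decreased between 7 and 8 mm. Between 5 and 8 mm, 369 of the falls increased and 218 decreased. In 43.3% of the rises the 5 mm anthers had the highest mean of the 3 sizes, in 32.0% the 7 mm anthers and in 24.6% the 8 mm anthers. These shares were not computed over all tested probe sets or without 5 mm anther replicate 1, so they are not read as a result.

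Of the 14 leading genes and probe sets that rose, 5 had a size step called, beside 34.8% of all rises. LOC107907413 averaged 10.72 ± 0.15 (SD, n = 3) at 5 mm, 10.95 ± 0.56 at 7 mm and 12.64 ± 0.29 at 8 mm, and its vegetative values ran from 6.59 to 7.33. Its rise was thus greater at 8 mm, by 1.92 over 5 mm. LOC107946138 ran the other way, with 11.99, 13.54 and 13.46 at 5 mm, then 10.79, 10.74 and 10.46 in 7 mm anthers. In 8 mm anthers it held 8.21, 11 and 9.43. Leaf and seedling held 5.77 to 6.41, and the rise over all sizes was 5.01 (SE 0.53). Buds without anthers spanned 10.66 to 11.56 for LOC107907413 and 9.05 to 13.04 for LOC107946138. Anthers minus buds was 0.51 and -0.55, and neither was called. LOC107895262 increased by 1.28 between 5 and 8 mm. LOC107907413 and LOC107946138 each have a dim probe set besides the one described, and these differed by 0.90 and 0.82 without being called.

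Of the 17 leading genes and probe sets that fell, 4 had a size step called, beside 26.1% of all falls. In LOC107940910, anthers averaged 3.92 ± 0.45 (SD, n = 3) at 5 mm, 4.65 ± 0.45 at 7 mm and 6.37 ± 0.25 at 8 mm. LOC107900463 averaged 5.33 ± 0.28, 5.92 ± 0.29 and 6.92 ± 0.47, and LOC107938326 averaged 2.87 ± 0.19, 3.18 ± 0.21 and 4.61 ± 0.70 at the same sizes. All 3 were thus nearest to their vegetative level at 8 mm. LOC107933118 was lowest at 7 mm, at 2.92 ± 0.64, with 6.56 ± 1.3 at 5 mm and 4.95 ± 1.1 at 8 mm.

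The 2 vegetative tissues were not alike among the called probe sets. Leaf was called above seedling in 272 of the rises (8.48%) and below it in 536 (16.7%). Among all tested probe sets leaf was higher in 8.47% and lower in 8.97%, 17.4% in all. Among the falls, leaf was higher in 549 (18.0%) and lower in 498 (16.3%). The part of signal level in these shares was not tested. Each of the 6 differences between an anther size and a vegetative tissue was at least 1 in 40.1% of the rises and 58.6% of the falls. In 300 of the rises and 285 of the falls, some of these 6 differences had the opposite sign.

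**Figure D4:**
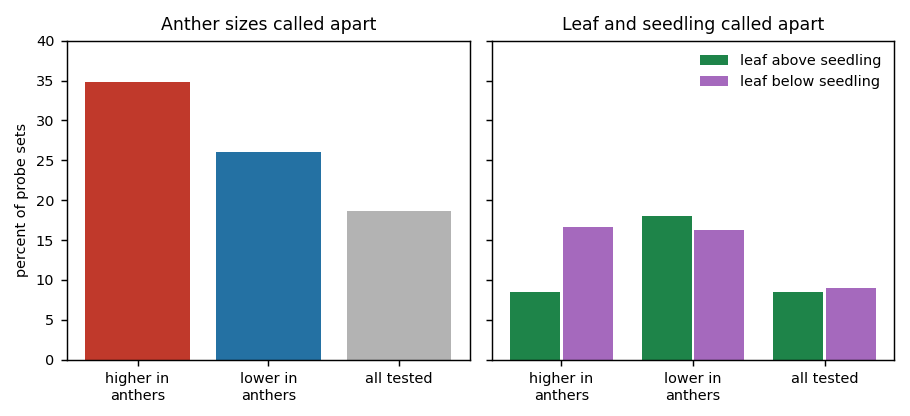
Bars give the percent of probe sets called between anther sizes (left) and between leaf and seedling (right), for probe sets higher in anthers, lower in anthers and all tested. Size steps were called for 34.8%, 26.1% and 18.6%, and leaf lay below seedling in 16.7% of the rises against 8.97% of all tested.

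The array carries actin and ubiquitin as control probe sets. Actin forms filaments of the cell skeleton, and ubiquitin tags proteins for breakdown. They are outside the tested probe sets and are given as levels without a test. The 3′ Ghi ubiquitin 11 probe set had 11.98 to 12.48 in anthers, against 10.84 to 10.98 in leaf and 10.06 to 10.17 in seedling. The 5′ one had 10.04 to 11.64 in anthers, against 9.45 to 9.78 in leaf and 8.35 to 8.95 in seedling. Both Ghi probe sets were therefore higher in every anther array than in any vegetative array. Buds without anthers reached above the highest anther array on both, at 11.54 to 12.61 (3′) and 9.95 to 12.73 (5′). The 3 Gra ubiquitin 11 probe sets were near background, with a mean over the 3 of 2.17 to 2.69 in anthers and 2.16 in leaf and seedling. A further control listed as ss1, averaged over 3 Ghi probe sets, had 8.84 to 11.06 in anthers, 7.08 to 7.28 in leaf and 9.53 to 9.98 in seedling, so anthers overlapped seedling.

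The 3 Ghi actin probe sets were lower in every anther array than in any vegetative array. The middle Ghi actin probe set had 10.81 to 11.61 in anthers, against 11.84 to 11.98 in vegetative tissues. The middle Gra actin probe set had 3.75 to 4.57 in anthers, 7.33 to 7.46 in leaf and 8.29 to 8.54 in seedling, with no overlap. The 5′ Gra actin probe set was dim and overlapped, with 3.55 to 3.84 in anthers and 3.73 to 4.28 in vegetative tissues. For the Ghi actin and ubiquitin 11 probe sets and the middle Gra actin one, directions were the same after quantile normalization, median centring and spike-in scaling, but with spike-in scaling the arrays of anthers and vegetative tissues overlapped for the 3 Ghi actin and both ubiquitin 11 probe sets. The 3′ minus 5′ difference of Ghi actin, a sign of RNA integrity and labelling, averaged 3.42 ± 0.43 in anthers and 2.95 ± 0.25 in vegetative tissues (SD, n = 9 and 6), with overlapping ranges. Its part in the results was not tested. Spike-ins added at hybridisation had means of 9.90 ± 0.42 in anthers and 9.92 ± 0.35 in vegetative tissues.

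**Figure D5:**
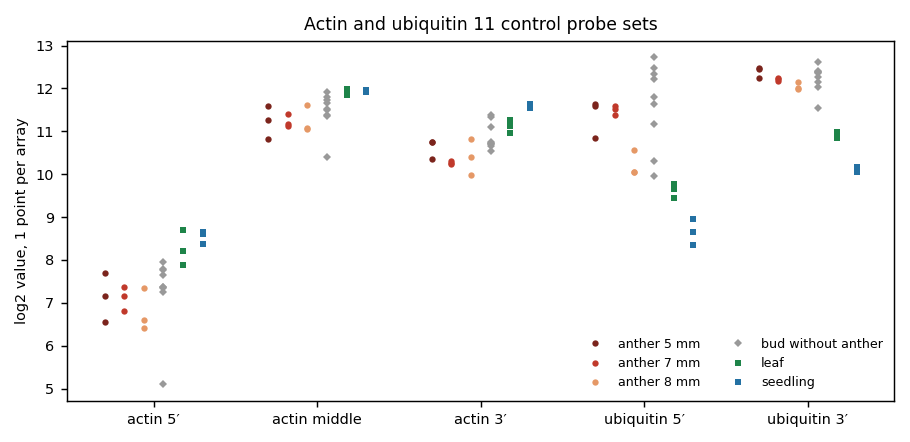
Log2 values of the Ghi actin and ubiquitin 11 control probe sets are plotted for each array, with probe sets along the horizontal axis and 1 point per array. Anther points lie below leaf and seedling points for all 3 actin probe sets, and above them for both ubiquitin 11 probe sets.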

How the data were processed

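Affymetrix log2 probe set values were deposited. The authors made them with GCRMA, per the submitters' processing notes, and no version of it is given in these sources. This method subtracts background, equalises arrays and combines the probes of a probe set. At the table's minimum, 2.16, lay 26.2% of values, which compresses differences from it. Each of the 24 columns carried its sample's label. Tests left out 155 control probe sets, and no normalization was added.

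limma 3.58.1 (R 4.3.3) estimated 8 group means from 24 arrays. The contrast of the 3 anther means with the leaf and seedling means was adjusted by Benjamini-Hochberg over 17666 probe sets. A bound for a group at background on all its arrays was computed from its values raised to 2.23. Of the tested probe sets, 5551 repeat a value on at least 3 arrays, and a group at such a value has no measured spread. The script was tested on simulated data of 17666 probe sets for this comparison, with normal noise and the changed probe sets well above background. It recovered 92.0% of changes of 1.5 and 98.0% of those of 2, and made 0 false calls. Alternatives covered the filter, floor, scaling, variance model, arrays, sizes, tissues, thresholds, probe set types, repeated values and a replicate block.

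The platform annotation gave a single symbol for 697 probe sets and several for 46; all 520 symbols were found in the gene table of Gossypium_hirsutum_v2.1. Coordinates are not printed because the builds may differ, and sequences were not used here. Probe sets ending in s_at or x_at, 8481 of those tested, can bind several related genes. Named were, among calls whose arrays did not overlap, the 12 genes that rose and the 12 that fell most, up to 3 per direction at background on the lower side, and 2 probe sets per direction without a symbol. Actin, ubiquitin and the genes in the closing observations were chosen after their values were seen. Members, lists, thresholds and alternatives were chosen with earlier results of these data known. Of same-numbered arrays, 0 of 10 pairs among these 15 arrays deviated together with a correlation over 0.1. Over the whole series 7 of 33 same-numbered pairs did, up to 0.52, beside 57 of 219 pairs with other numbers. With 3 arrays per group these correlations cannot show whether the numbers pair samples, and the main fit did not pair them. Figures were drawn with matplotlib 3.10.9.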

Additional observations from a re-analysis of the deposited data

Results flagged for a closer look

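Among the leading genes and probe sets, 5 of the 14 that rose and 4 of the 17 that fell differed between bud sizes, by limma's test of the size step. Over all calls, a size step was called for 34.8% of the rises and 26.1% of the falls, beside 18.6% of all tested probe sets. The largest called steps of genes that rose were -3.45 for LOC107946138 (8 minus 5 mm), -3.56 for LOC107956851 (8 minus 7 mm), 1.92 for LOC107907413 and 1.28 for LOC107895262 (8 minus 5 mm), and 1.99 for LOC107933034 (7 minus 5 mm). The step of LOC107933034 was 3.22 without 5 mm anther replicate 1. Its call was lost without 5 mm anther replicate 3 (1.41) or 4 (1.34) and without 7 mm anther replicate 1 (1.97), 2 (1.99) or 3 (2.01). The step of LOC107946138 became -2.78 when 8 mm anther replicate 1 was left out, and -4.18 when replicate 6 was. Among genes that fell, the steps were 2.45 for LOC107940910, 1.74 for LOC107938326 and 1.59 for LOC107900463 (8 minus 5 mm), and -3.64 for LOC107933118 (7 minus 5 mm), which was -4.40 without 5 mm anther replicate 1.

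The difference also varied with the vegetative tissue, by the test of leaf minus seedling. Leaf was lower for LOC107896372 (-4.42), LOC107933034 (-3.17), LOC107914060 (-2.04) and the Ghi probe set without a symbol that rose by 9.09 (-1.29). Leaf was higher for LOC107927057 (2.50), LOC107925198 (1.65) and LOC107958101 (1.54). A reporter control probe set, RPTR-Ghi-X03453-2_s_at, whose target the labels describe as not added, averaged 14.2 over the 24 arrays, from 13.9 to 14.5. The next highest of the 69 such controls averaged 2.44.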

How the results depend on the processing

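The 31 named genes and probe sets kept their direction and call under all 37 alternatives that tested them. With the adjusted p alone there were 7226 rises and 4940 falls. Of these, 3835 and 1957 had a size step and 2984 and 2372 had leaf and seedling apart. With an adjusted p under 0.01 and a difference of at least 2 there were 1035 and 1676, with 232 and 156, and 133 and 289. Tested against a difference of 1, 1946 rose and 2321 fell. Without s_at and x_at, which leaves 9185 probe sets, the counts were 1675 and 1688 called, 1779 and 1403 not overlapping, 623 and 424 with a size step, and 388 and 644 with leaf and seedling apart. Without repeated values, 635 of the falls had leaf and seedling apart. Spike-in scaling left 1353 and 1749 probe sets not overlapping, of which the cause was not tested, and 7 mm anthers alone, with fewer arrays, gave 5785 above. Leaving out each array gave 3173 to 3255 rises, 3013 to 3071 falls, 3619 to 3908 and 2653 to 2835 not overlapping, 986 to 1252 and 674 to 936 with a size step, and 761 to 824 and 985 to 1062 with leaf and seedling apart. With the replicate number as a block the counts were 3250 and 3009, and no named call changed. Leaf alone gave 3372 and 3141, seedling alone 3324 and 3020. Across the scalings, the share of calls that were rises ran from 49.4% with median centring to 54.1% with spike-in scaling, beside 51.2% as deposited. A value at the lowest level gives only a bound, which limits the folds of dim genes.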

Other observations

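Of 4 probe sets named for ribosomal RNA, 2 rose in anthers and 0 fell, where 18.2% of all tested probe sets rose and 17.3% fell. GhirRNA.2.1.S1_s_at had 10.38, 11.87 and 12.49 as lowest, median and highest value in anthers, against 7.18, 7.48 and 7.88 in vegetative tissues, a rise of 4.26 (SE 0.35, adjusted p = 2.37e-09). GhirRNA.1.1.S1_at rose by 2.08, with 8.75 to 10.31 in anthers and 6.17 to 8.46 in vegetative tissues. Means in buds without anthers were 11.36 for GhirRNA.2.1.S1_s_at and 9.07 for GhirRNA.1.1.S1_at. GhirRNA.4.1.S1_s_at scattered from 2.16 to 12.78 in anthers and from 2.16 to 6.84 in vegetative tissues, and its difference of 2.75 was not called (adjusted p = 0.106). GhirRNA.3.1.S1_s_at had 2.73 to 4.21 in anthers against 3.34 to 4.32 in vegetative tissues, and its difference of -0.66 (adjusted p = 9.17e-04) was under the size needed for a call. What these probe sets measured here was not tested.

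Among 101 genes with at least 2 tested probe sets, all probe sets rose for 9 and all fell for 10. Some were called in 1 direction for 39, none for 39, and 4 had probe sets called both ways. LOC107889072 rose by 1.76 on one probe set and differed by -4.06, -3.31 and -3.89 on the other 3. The arrays overlapped on the rising probe set, at 6.45 to 9.11 in anthers and 3.25 to 8.81 in vegetative tissues, but not on the other 3. LOC107900642 rose by 1.79 on one probe set and fell by 1.28 on the other. The rising probe set overlapped, at 8.42 to 11.15 in anthers and 5.39 to 10 in vegetative tissues. The falling one did not, at 9.42 to 10.11 against 10.93 to 11.16. LOC107925445 differed by 1.04 and -3.43 on its 2 called probe sets, with no overlap on either. LOC107959059 rose by 1.73 on one probe set, where anthers ran from 2.27 to 7.86 against 2.16 to 3.86 in vegetative tissues. It differed by -1.31 and -1.75 on 2 others, where the arrays overlapped too.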
